A study of Mus musculus with 20 samples.

Results

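The transcriptome described here is that of AgRP neurons of fed wild-type mice. It was chosen by label alone: 5 libraries carry the wild-type genotype and the fed condition, of 20 libraries in 4 groups of 5. The other groups were fasted overnight or came from mice lacking Phf6 in AgRP neurons, and they enter nowhere below. The wild-type mice were C57BL/6 animals of postnatal day 25 to 30 with the genotype AgRP-Cre/+; Ai9/+. The Cre recombinase is driven from the Agrp locus, and the Ai9 allele makes the red protein tdTomato in every cell in which Cre has acted. A cell that expressed Cre only earlier in life therefore also stays red. Hypothalamic tissue of about 1 mm3 per mouse was punched out and dissociated with papain, and 1000 tdTomato-positive neurons per sample were sorted. Polyadenylated RNA was converted to full-length cDNA, amplified for 15 cycles and sequenced. The labels number the libraries 1 to 5 but do not say whether each came from a separate mouse, so the SD given below measures the spread between these libraries, which may be partly technical.

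AgRP neurons lie in the arcuate nucleus at the base of the hypothalamus and drive hunger. They release the inhibitory transmitter GABA and the peptides NPY, which acts on NPY receptors, and AgRP, which blocks melanocortin receptors downstream. Their firing is raised by ghrelin and energy deficit, and lowered by leptin, insulin and food-related signals from the gut. The genes of interest are therefore those of secretion, the receptors that read hormones and transmitters, and the channels that set firing.

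Levels are given on 2 scales. CPM is the number of reads that fall on a gene out of every 1000000 gene-assigned reads of a library, and it favours long transcripts. TPM divides each count by the length of the gene's merged exons before rescaling to the same total, and only TPM corrects for length. Where genes are set side by side in CPM or by reads, the order is not corrected for length. A gene is termed expressed when it reached at least 1 CPM in all 5 libraries, and undetected when it had no count in any of them. Library totals ran from 11500753 to 13060922 counts, with a mean of 12380890 ± 676359 (SD, n = 5). Where no count was found, a level of 3 counts per library remains possible, which is 0.230 to 0.261 CPM at these totals. That limit covers counting error only. Of 23129 gene names, 11950 were expressed (51.7%) and 5860 were undetected (25.3%). Over the 20482 protein-coding genes alone, 56.0% were expressed and 23.1% were undetected. The libraries held 15418 to 15562 genes with a count.

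Reads were spread over many genes, with a single peptide gene standing far above the rest. Npy alone took 18389, 18218, 18712, 16983 and 18821 CPM in libraries 1 to 5, or 88746 ± 3219 TPM (SD, n = 5). All 5 values lie above those of any other gene. Yet the 10 genes of highest mean CPM held only 6.30% ± 0.0733 of counts (SD, n = 5), the top 50 held 13.99% ± 0.0683, and 800.6 ± 10.0 genes were needed to reach 50% of counts. The 99 genes of at least 1000 CPM held 19.7% of counts, and the 2182 genes between 100 and 1000 CPM held 53.2%.

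Several kinds of gene filled the places after Npy. By reads, the next was Malat1, a nuclear long noncoding RNA, at 7453 ± 346 CPM (SD, n = 5). Resp18, a protein of dense-core secretory granules, followed at 6432 ± 182 CPM, then Hspa8, the constitutive HSC70 chaperone, at 6095 ± 238 CPM. Zwint, known as a kinetochore protein and also a partner of the vesicle protein SNAP25, stood at 5817 ± 165 CPM. Agrp took place 6 with 4980 ± 237 CPM. Calm2, which encodes calmodulin, and Hsp90aa1, an HSP90 chaperone, held 3822 ± 106 and 3487 ± 115 CPM. Ndn and Nap1l5, both expressed from the paternal allele, held 3469 ± 29.4 and 3214 ± 166 CPM. On the per-length scale the order differed: Resp18 (17180 ± 425 TPM) and Agrp (13551 ± 618 TPM) came directly after Npy, followed by Calm2 (7181 ± 203 TPM) and the small X-linked gene Bex2 (6461 ± 122 TPM). Malat1, whose exons span 6983 bases, took place 16 in TPM, and Zwint took place 11.

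**Figure D1:**
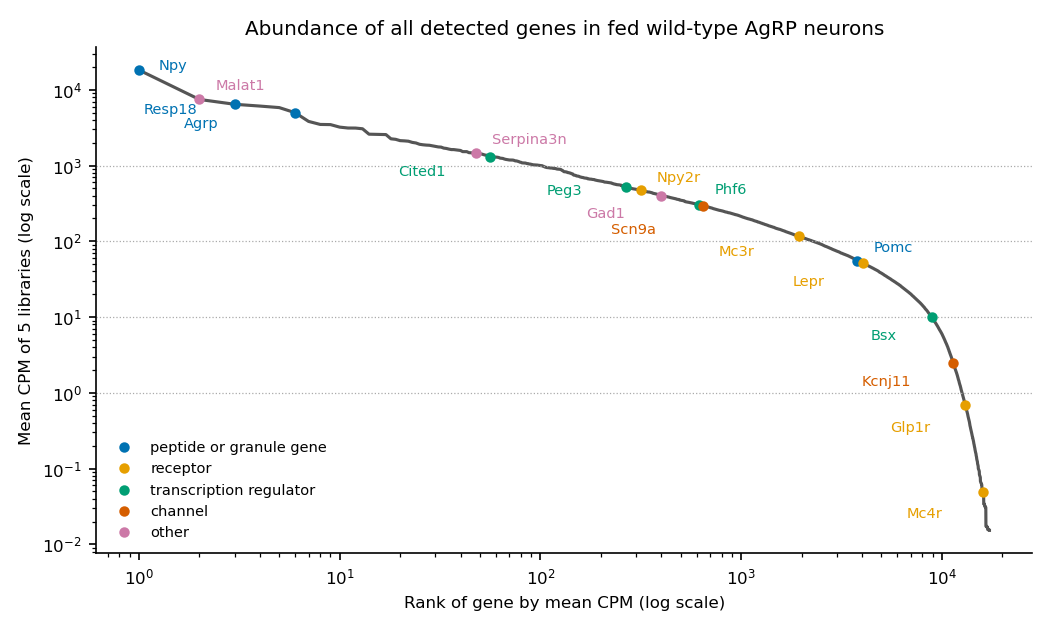
Mean CPM of every gene with a count (both axes logarithmic) against its rank in the 5 fed wild-type libraries; labelled points are genes named in the text and dotted lines mark the class limits of 1, 10, 100 and 1000 CPM. Npy stands at 18225 CPM and 99 genes lie at or above 1000 CPM.

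Among genes for signalling peptides, Npy and Agrp, which define the cells, had the highest levels. Npy (chr6:49822710-49829507, plus strand, GRCm38) encodes neuropeptide Y, and Agrp (chr8:105566698-105637393, minus strand) the melanocortin antagonist. Agrp read 5268, 4915, 5076, 4623 and 5019 CPM in libraries 1 to 5. Library 4 was the lowest for both genes. Together they took 2.32% ± 0.0937 of all counts (SD, n = 5). Per length, Npy transcripts outnumbered Agrp transcripts 6.55 ± 0.179 to 1, with a range from 6.25 to 6.71, so that the ratio varied less than either level. With the longest annotated transcript of each gene in place of the merged exons, the ratio was 4.75, since the length used for Agrp is then 734 in place of 1013 bases. The annotated Agrp gene shares 11.3% of its exon bases with Ctcf.

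Sst, which encodes somatostatin, was the third peptide, with 386, 534, 465, 305 and 349 CPM in libraries 1 to 5 (1558 ± 347 TPM, SD, n = 5). Relative to the mean, its libraries differed by more than those of Npy, with library 2 the highest and library 4 the lowest. Cartpt, whose CART peptide is best known from the neighbouring Pomc neurons, held 386, 396, 309, 337 and 375 CPM (778 ± 78.1 TPM). Pomc, the precursor of the melanocortin agonist alpha-MSH and a marker of those same neighbours, read 93.1, 58.4, 48.2, 36.4 and 42.3 CPM (116 ± 47.0 TPM). Library 1 was the highest for Pomc. In bulk libraries of sorted cells, fewer cells of a type and less RNA per cell cannot be told apart, and this holds for every gene below. In TPM the order Npy, Agrp, Sst, Cartpt, Pomc held in 5 of 5 libraries at every step, with no overlap between neighbouring ranges.

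Other peptide genes had far fewer reads than Cartpt. Nucb2, the nesfatin precursor, stood at 67.9 ± 3.90 CPM, Cbln4, a secreted synapse organiser, at 57.1 ± 4.07 CPM, and Adcyap1, which encodes PACAP, at 27.5 ± 4.06 CPM (SD, n = 5). Nmb, which encodes neuromedin B, held 17.7 ± 2.52 CPM, and Gal, which encodes galanin, 12.4 ± 1.27 CPM. Pnoc, the nociceptin precursor, held 11.5 ± 1.82 CPM, and Pdyn, the dynorphin precursor, 9.30 ± 1.65 CPM. The list of 64 arcuate and hypothalamic peptide genes leaves out these cells' own pair and the Pomc pair. Of the 64, 21 were expressed (32.8%, against 51.7% of all names) and 9 were undetected (14.1%, against 25.3%). The other 34 lay between, and the median of the list was 0.354 CPM. The undetected ones were Pmch (melanin-concentrating hormone), Tac2 (neurokinin B), Nms, Npvf, Prlh, Ucn, Ucn2, Adm and Uts2b. Hcrt (orexin), Oxt (oxytocin), Avp (vasopressin), Ghrh and Kiss1 each had a few counts, with means from 0.0153 to 0.0933 CPM, below what a count of 0 allows. Crh and Trh averaged 0.286 and 0.803 CPM.

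Granule proteins and processing enzymes were expressed almost without exception. All 14 granins and granule proteins of the list were expressed, against 51.7% of all names. All were at 10 CPM or more, and together they held 1.53% of counts. Per length, Resp18 made up 63.1% ± 0.579 of the 8 granule proteins compared (SD, n = 5). Next came Pcsk1n (proSAAS, an inhibitor of prohormone convertase 1) with 3931 ± 69.5 TPM and Scg2 (secretogranin II) with 3423 ± 41.5 TPM. Scg5, the 7B2 chaperone of convertase 2, stood at 1937 ± 49.4 TPM. The classical granins Chgb (229 ± 13.2 TPM) and Chga (167 ± 4.36 TPM) and the neurotrophin-inducible Vgf (72.6 ± 8.66 TPM) were lower, and every step of this order held in 5 of 5 libraries. Of 16 processing enzymes, 15 were expressed (93.75%, against 51.7% of all names). Cpe, the carboxypeptidase that trims cleaved peptides, held 1029 ± 43.7 CPM, and Pam, which adds the C-terminal amide that NPY needs, 269 ± 11.6 CPM. Of the convertases, Pcsk1 (42.1 ± 3.92 TPM) lay above Pcsk2 (17.1 ± 1.02 TPM) in all 5 libraries, and Pcsk1n exceeded both.

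**Figure D2:**
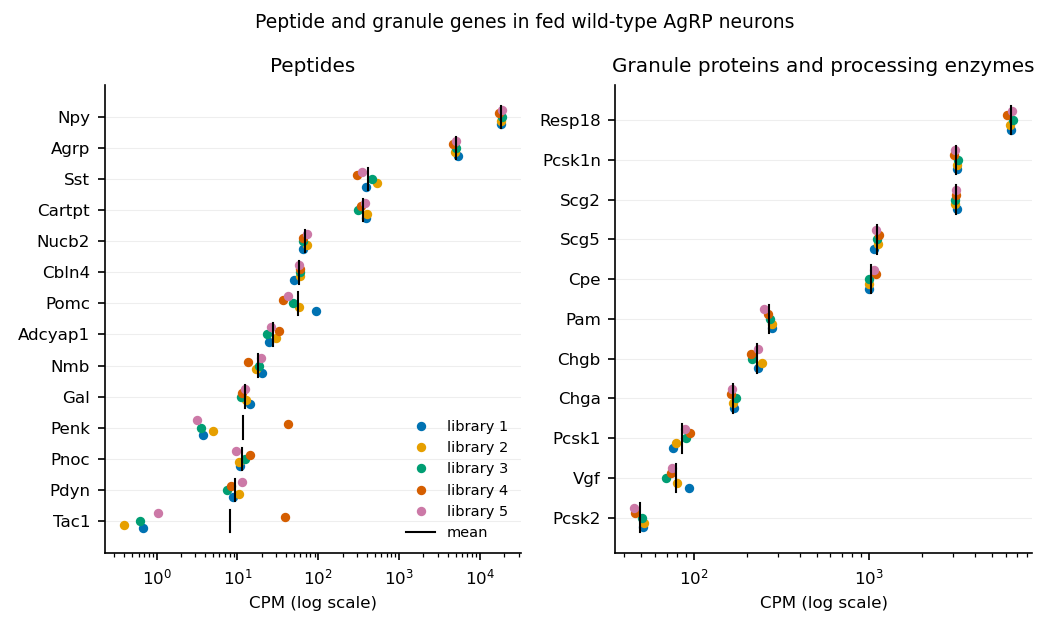
CPM (logarithmic axis) of peptide, granule and processing genes in each of the 5 fed wild-type libraries; each point is 1 library and the bar is the mean. Penk and Tac1 show 1 library far to the right, at 42.5 and 38.3 CPM, while the 5 points of Npy, Agrp and Resp18 nearly coincide.

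Promoters of peptide and granule genes are given as examples of the base composition and short motifs that are counted over abundance classes further on. Npy and Resp18 fall in the same class, so their contrast is not one between classes. Each is the window from 250 bases before to 50 bases after the annotated start, on the gene's own strand, from RefSeq on GRCm38.p6. Npy and Resp18 stand first and second in TPM; in their windows the capitals mark CG dinucleotides, the sites of DNA methylation. The Npy window (chr6:49822460-49822759, plus strand) holds 24 of them, with an observed-to-expected CpG ratio of 0.693. The Resp18 window (chr1:75278366-75278665, minus strand) holds 5, with a ratio of 0.249.
Npy: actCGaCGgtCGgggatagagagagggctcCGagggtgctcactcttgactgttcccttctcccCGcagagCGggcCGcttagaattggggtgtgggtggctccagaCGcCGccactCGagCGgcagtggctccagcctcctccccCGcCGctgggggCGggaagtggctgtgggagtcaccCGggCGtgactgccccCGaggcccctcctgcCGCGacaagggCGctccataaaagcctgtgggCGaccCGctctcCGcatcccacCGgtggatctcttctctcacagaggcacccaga
Resp18: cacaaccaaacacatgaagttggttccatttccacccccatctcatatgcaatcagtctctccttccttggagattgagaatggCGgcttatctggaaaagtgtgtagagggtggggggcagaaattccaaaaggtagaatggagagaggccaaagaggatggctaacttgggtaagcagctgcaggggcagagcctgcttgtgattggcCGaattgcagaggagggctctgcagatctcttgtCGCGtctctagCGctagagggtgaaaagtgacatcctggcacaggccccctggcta
For Sst (chr16:23890795-23891094, minus strand), Cartpt (chr13:99900634-99900933, minus strand) and Pomc (chr12:3954695-3954994, plus strand), the capitals mark the cAMP response element TGACGTCA and the TATA box TATAAA. TGACGTCA reads the same on both strands.
Sst: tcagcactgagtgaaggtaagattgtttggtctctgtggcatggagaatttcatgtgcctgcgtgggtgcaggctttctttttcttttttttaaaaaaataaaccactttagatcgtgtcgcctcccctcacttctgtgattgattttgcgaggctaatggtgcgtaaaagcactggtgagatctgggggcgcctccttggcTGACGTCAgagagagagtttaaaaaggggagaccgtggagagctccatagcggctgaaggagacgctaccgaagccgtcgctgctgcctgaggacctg
Cartpt: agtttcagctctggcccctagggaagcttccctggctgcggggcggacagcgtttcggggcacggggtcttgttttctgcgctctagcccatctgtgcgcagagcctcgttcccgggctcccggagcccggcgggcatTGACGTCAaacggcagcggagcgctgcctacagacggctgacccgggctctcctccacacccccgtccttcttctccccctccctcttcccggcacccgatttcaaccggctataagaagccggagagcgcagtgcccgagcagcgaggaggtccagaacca
Pomc: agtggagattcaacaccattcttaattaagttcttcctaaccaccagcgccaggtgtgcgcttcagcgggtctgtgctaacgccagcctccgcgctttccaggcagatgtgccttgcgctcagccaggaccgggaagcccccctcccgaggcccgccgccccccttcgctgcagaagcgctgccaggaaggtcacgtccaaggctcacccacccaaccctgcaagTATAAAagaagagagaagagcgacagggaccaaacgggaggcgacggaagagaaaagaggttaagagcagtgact
TGACGTCA begins 48 bases before the Sst start and 112 bases before the Cartpt start, and TATAAA begins 25 bases before the Pomc start. Of 17220 genes of the table with a RefSeq promoter, 451 (2.62%) hold TGACGTCA in this window. TATAAA lies on either strand of 2452 of them (14.2%), and on the gene's own strand 45 to 11 bases before the start in 543 (3.15%). The motifs do not overlap each other in the windows shown. Among 16 expressed peptide genes with an entry, 2 held TGACGTCA (Sst and Cartpt) and 3 held the placed TATAAA, and among 34 peptide genes that were not expressed 1 and 6 did. A match is a run of letters, and no binding was measured.

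The genes of GABA synthesis were well represented. Gad1 and Gad2, which encode the enzymes that make GABA, held 145 ± 6.59 and 127 ± 5.97 TPM (SD, n = 5), and Gad1 was the higher in 5 of 5 libraries. All 7 genes for GABA synthesis, release and uptake were expressed, against 51.7% of all names. Abat, the GABA transaminase, read 164 ± 6.64 CPM. Slc32a1, the vesicular GABA transporter, was low beside the enzymes, with 9.65, 11.6, 13.8, 10.1 and 10.8 CPM in libraries 1 to 5 (11.01 ± 1.61 TPM). None of the 3 vesicular glutamate transporter genes was expressed: Slc17a7 was undetected, and Slc17a6 and Slc17a8 averaged 1.38 and 0.857 CPM.

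Genes of other transmitters were present in part. Th and Ddc, the enzymes of dopamine synthesis, stood at 14.3 ± 2.497 and 20.7 ± 2.70 CPM, while the dopamine transporter Slc6a3 averaged 0.825 CPM. Slc18a2, the vesicular monoamine transporter, read 6.89, 3.52, 5.35, 15.0 and 4.43 CPM, with library 4 far above the rest. The transporters for noradrenaline (Slc6a2), serotonin (Slc6a4), choline (Slc5a7) and glycine at nerve endings (Slc6a5) were undetected, and Chat, which makes acetylcholine, averaged 0.287 CPM. Ache, which breaks acetylcholine down, nevertheless stood at 270 ± 10.8 CPM.

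Ghr and Acvr1c had the most reads of the metabolic hormone receptors, and per length both lay above Lepr and Insr. Of 51 receptors of the cytokine and kinase classes, 31 were expressed (60.8%, against 51.7% of all names and 56.0% of protein-coding genes) and 2 were undetected, Epor and Ngfr. Ghr, the growth hormone receptor, read 277, 285, 299, 271 and 281 CPM in libraries 1 to 5 (86.0 ± 2.90 TPM). Acvr1c, the activin receptor-like kinase 7, read 215, 231, 229, 213 and 224 CPM (66.0 ± 2.14 TPM). Lepr, the leptin receptor, held 59.4, 56.1, 53.2, 39.7 and 50.3 CPM (20.2 ± 2.90 TPM), with library 4 the lowest. Ntrk2, the BDNF receptor, held 134 ± 9.12 CPM. Insr, the insulin receptor, averaged 26.8 ± 3.25 CPM (5.38 ± 0.659 TPM) and Igf1r 1.97 ± 0.733 CPM (0.323 ± 0.120 TPM). Il6st, the shared gp130 chain, held 43.4 ± 4.07 CPM, and Prlr, the prolactin receptor, 14.4 ± 1.24 CPM. Gfral, the receptor for GDF15 that is known from the hindbrain, had a count in 1 library only.

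Among the receptors of the feeding circuit itself, the NPY autoreceptor had the highest level. Npy2r, whose Gi-coupled Y2 receptor restrains NPY release, read 463, 460, 480, 481 and 474 CPM (384 ± 8.81 TPM, SD, n = 5). It made up 86.1% ± 0.876 of NPY receptor transcripts per length. Npy5r (41.4 ± 2.68 TPM) and Npy1r (20.01 ± 1.501 TPM) followed in 5 of 5 libraries. Npy4r and Npy6r were near zero at 0.345 and 0.122 TPM. Of the 5 melanocortin receptors, Mc3r accounted for 99.9% ± 0.0819 per length, with 112, 123, 115, 110 and 122 CPM. Mc4r, the receptor that AgRP antagonises on downstream cells, had counts in 2 libraries, at most 0.169 CPM, below what a count of 0 allows, and Mc2r was undetected. Ghsr, the ghrelin receptor, read 56.6, 49.5, 47.7, 44.0 and 52.3 CPM (31.1 ± 2.91 TPM), beside 40.3 ± 0.963 CPM of its accessory protein gene Mrap2.

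Receptors for gut and pancreatic peptides were expressed in part, and the calcitonin receptor had the most reads. Of 31 such genes in the table, 10 were expressed (32.3%, against 51.7% of all names) and 4 were undetected: Glp2r, Gcgr, Galr1 and Galr3. Calcr, which binds calcitonin and, with RAMP proteins, amylin, read 252, 242, 249, 288 and 232 CPM (178 ± 15.8 TPM). Adcyap1r1, the PACAP receptor, was next by reads with 85.6 ± 5.97 CPM. Glp1r, the target of GLP-1 drugs, averaged 0.686 ± 0.263 CPM, Gipr 0.0464 CPM and Cckar 0.412 CPM, and none of these reached 1 CPM in all libraries. Both the ligand and receptors of the somatostatin system were present, with Sstr2 at 8.81 ± 1.77 CPM and Sstr1 at 6.66 ± 0.400 CPM. Nmbr, the neuromedin B receptor, held 7.89 ± 1.64 CPM.

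**Figure D3:**
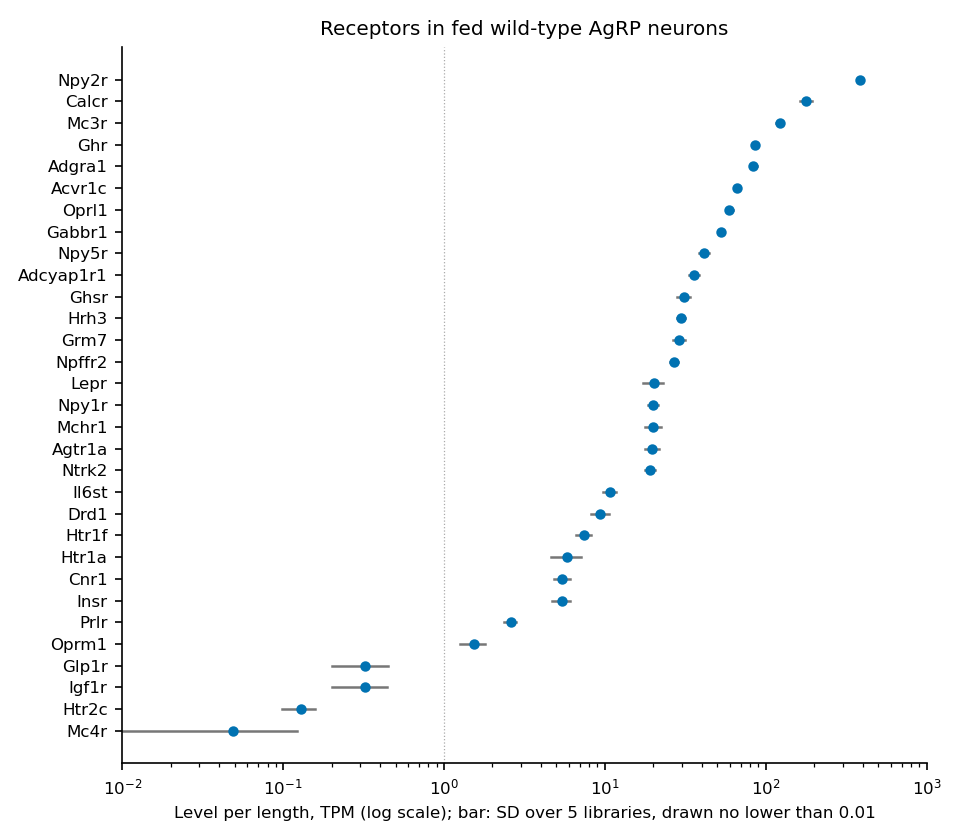
Level per length (TPM, logarithmic axis) of hormone, peptide and transmitter receptors in fed wild-type AgRP neurons; points are means and bars the SD over 5 libraries. Npy2r lies at 384 TPM, Calcr at 178 TPM and Mc3r at 122 TPM, while Glp1r and Mc4r lie below 1 TPM.

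Over all lists, 90 of 224 G protein-coupled receptor genes were expressed (40.2%, against 51.7% of all names) and 32 were undetected (14.3%, against 25.3%). Only 5 of them reached 100 CPM: Npy2r, Calcr, Adgra1, Gabbr1 and Mc3r. Adgra1, an adhesion receptor with no known ligand, stood at 83.8 ± 3.82 TPM. Gabbr1, a subunit of the GABA-B receptor, stood at 52.9 ± 1.97 TPM and its partner Gabbr2 at 11.2 ± 1.13 TPM. Grm7, a presynaptic glutamate receptor, held 29.0 ± 2.45 TPM.

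Oprl1, the nociceptin receptor, led the opioid group at 59.3 ± 2.99 TPM, with its ligand gene Pnoc present in the same libraries. The mu receptor Oprm1 held 1.53 ± 0.267 TPM, and the kappa and delta receptors Oprk1 and Oprd1 averaged 1.09 and 0.263 CPM. Cnr1, the CB1 cannabinoid receptor, read 12.7 ± 1.42 CPM, and Cnr2 was undetected. Among amine receptors, Hrh3, the histamine H3 receptor, had the most reads with 34.0 ± 1.86 CPM. Drd1 held 12.3 ± 1.58 CPM, Drd2 averaged 0.0468 CPM, and Drd3 and Drd5 were undetected. Adra1a held 10.1 ± 0.477 CPM.

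Serotonin receptor genes were low as a group, their 12 genes summing to 22.3 ± 0.803 TPM. Htr1f (7.41 ± 0.824 TPM) and Htr1a (5.85 ± 1.21 TPM) were the highest, and their ranges overlapped, with Htr1f above in 4 of 5 libraries. Both couple to the inhibitory protein Gi. Htr2c, the receptor through which serotonin acts on Pomc neurons, held 0.129 ± 0.0300 TPM, and Htr5b was undetected. Receptors of other hypothalamic peptides that were expressed included Agtr1a (angiotensin II, 19.9 ± 1.96 CPM), Npffr2 (neuropeptide FF, 16.1 ± 0.941 CPM), Mchr1 (melanin-concentrating hormone, 15.8 ± 1.77 CPM) and Hcrtr1 (orexin, 5.41 ± 1.80 CPM).

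Among the receptors for fast inhibition, Gabra5 was the leading alpha subunit. Of 19 GABA-A genes, 13 were expressed (68.4%, against 51.7% of all names) and 2 were undetected, Gabra6 and Gabrr3. Gabra5 stood at 128 ± 7.23 TPM or 53.9% ± 1.82 of alpha transcripts (SD, n = 5). It was followed by Gabra3 (74.8 ± 3.02 TPM) and Gabra2 (20.97 ± 0.843 TPM). Among the gamma, delta, epsilon and theta subunits, Gabrq (76.0 ± 5.15 TPM), Gabrg1 (62.4 ± 2.15 TPM) and Gabre (30.2 ± 2.86 TPM) followed each other in 5 of 5 libraries without overlap. Gabrq and Gabre encode the theta and epsilon subunits, which have a narrow distribution in the brain and lie beside Gabra3 on the X chromosome. Gabrd, the delta subunit of extrasynaptic receptors, averaged 0.336 TPM.

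Of the glutamate receptors, AMPA subunits were far above NMDA subunits. Gria2 (86.3 ± 1.46 TPM) and Gria4 (84.1 ± 3.499 TPM) could not be ordered, since Gria2 was higher in 3 of 5 libraries. Gria1 (41.3 ± 2.48 TPM) and Gria3 (8.02 ± 0.818 TPM) came below them. Cnih2, which escorts AMPA receptors to the surface, held 551 ± 29.9 TPM. Grin1, the obligatory NMDA subunit, stood at 12.9 ± 0.867 TPM, and the GluN2 and GluN3 subunits summed to 12.6 ± 0.661 TPM. Among these Grin2d (5.11 ± 0.448 TPM) was above Grin2b (3.89 ± 0.466 TPM) in 5 of 5 libraries. Grin2a held 0.873 ± 0.161 TPM. Glrb, the beta subunit of the glycine receptor, stood at 116 ± 7.08 TPM, above its partner Glra2 at 19.4 ± 4.59 TPM. Of 18 nicotinic and 5-HT3 subunit genes only Chrnb2 and Chrna4 were expressed (11.1%, against 51.7% of all names).

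**Figure D4:**
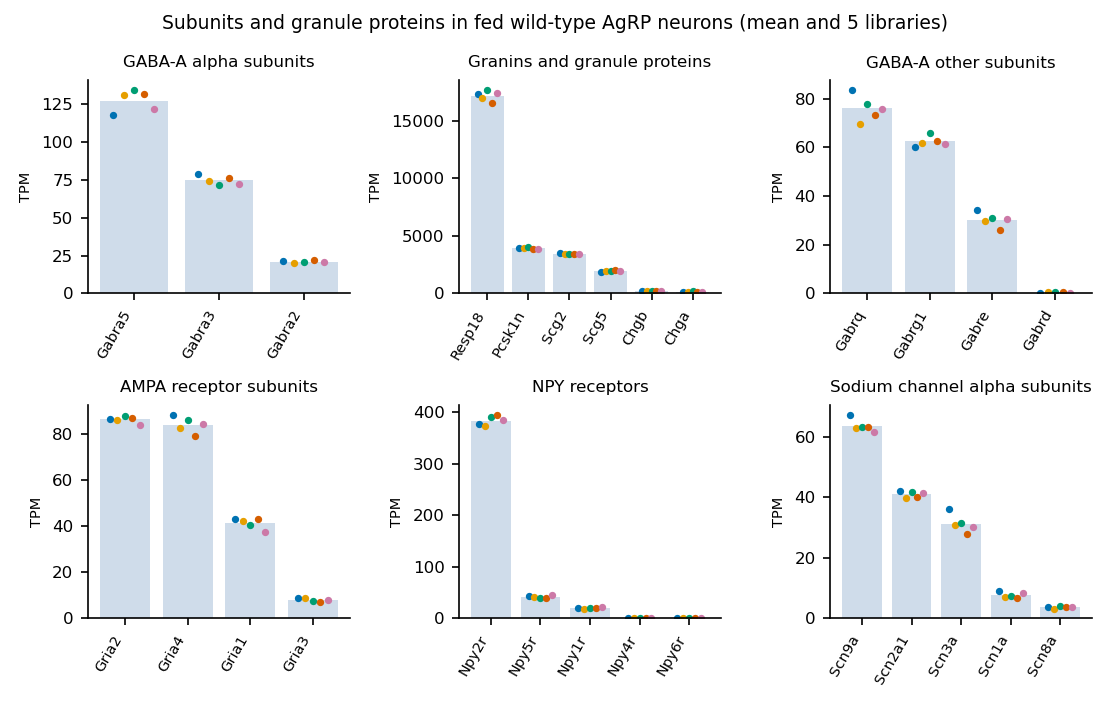
Level per length (TPM) of receptor subunits, channel subunits and granule proteins by family, for the leading genes named in the text, in fed wild-type AgRP neurons; bars start at 0 and give the mean, and points give libraries 1 to 5 from left to right. Gabra5, Resp18, Npy2r and Scn9a are the tallest bars of their panels, and Gria2 and Gria4 are of about equal height.

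The channels of action potential firing were led by Scn9a. Of 191 channel genes, 119 were expressed (62.3%, against 51.7% of all names and 56.0% of protein-coding genes) and 20 were undetected (10.5%, against 25.3%). Scn9a, the sodium channel Nav1.7 best known from pain neurons, read 311, 292, 294, 292 and 287 CPM in libraries 1 to 5 (63.7 ± 2.13 TPM, SD, n = 5). Scn2a1 (41.1 ± 1.02 TPM) and Scn3a (31.3 ± 2.96 TPM) followed, and the order Scn9a, Scn2a1, Scn3a, Scn1a, Scn8a held in 5 of 5 libraries. Scn1a and Scn8a, the other main sodium channels of adult brain, stood at 7.67 ± 0.948 and 3.67 ± 0.361 TPM. Scn4a, the muscle channel, was undetected. The sodium leak channel Nalcn, which depolarises neurons at rest, held 109 ± 7.95 CPM and its partners Unc80 and Unc79 held 154 ± 10.1 and 30.1 ± 4.18 CPM.

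Among potassium channels, Kcnk2 led the tandem-pore group and auxiliary subunits of Kv4 channels had the most reads of the voltage-gated list. Kcnk2, the tandem-pore channel TREK-1, read 167, 173, 164, 171 and 175 CPM (94.7 ± 2.46 TPM), or 57.0% ± 1.96 of tandem-pore transcripts, and Kcnk1 followed at 45.8 ± 4.51 TPM. Kcnk4, Kcnk7, Kcnk16 and Kcnk18 were undetected. Of 49 voltage-gated potassium channel genes, 35 were expressed (71.4%, against 51.7% of all names) and 6 were undetected. Dpp6 (188 ± 7.57 CPM) and Kcnip1 (99.2 ± 4.52 CPM), auxiliary subunits of Kv4 channels, had the most reads, beside the Kv4 genes Kcnd2 (26.0 ± 1.68 TPM) and Kcnd3 (11.6 ± 0.828 TPM). Kcnc2, a Kv3 gene, stood at 24.0 ± 2.49 TPM, within the spread of Kcnd2. The GIRK channels through which Gi-coupled receptors silence neurons were present, with Kcnj3 at 12.9 ± 0.797 TPM and Kcnj5 at 12.3 ± 1.59 TPM, whose ranges overlapped. The KATP channel, which couples energy state to firing, was low: Kcnj11 averaged 2.47 ± 0.452 CPM and Abcc8 4.98 ± 0.994 CPM.

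Among calcium channels, 15 of 18 genes were expressed (83.3%, against 51.7% of all names) and none was undetected. Cacna1b, the N-type channel, led the high-voltage group at 13.7 ± 1.22 TPM, above Cacna1d (8.66 ± 0.995 TPM) in 5 of 5 libraries. Cacna1e and Cacna1a overlapped, at 5.93 ± 0.846 and 5.30 ± 0.535 TPM. The low-voltage (T-type) group summed to 4.22 ± 0.508 TPM, against 36.02 ± 3.35 TPM for the high-voltage group. Hcn2 and Hcn3 (8.15 ± 0.508 and 7.72 ± 0.587 TPM) overlapped. Trpc4 had the most reads of the 29 TRP channel genes, at 58.6 ± 1.47 CPM, and its relative Trpc5, through which leptin excites Pomc neurons, held 2.999 ± 0.655 CPM. Of the chloride transporters that set the sign of GABA responses, the importer Slc12a2 and the exporter Slc12a5 stood at 17.6 ± 1.86 and 17.0 ± 1.68 TPM, within each other's spread.

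Fewer than 50% of transcription factor genes were expressed. Of 677 genes, leaving out the chromatin regulators described below, 273 were expressed (40.3%, against 51.7% of all names) and 198 were undetected (29.2%, against 25.3%). Their median was 0.339 CPM, and together they held 0.876% of counts. Of 42 genes of the list of Hox factors, 39 were undetected and none was expressed, and 19 of 40 forkhead genes were undetected. By contrast, 34 of 52 basic leucine zipper genes (65.4%) were expressed.

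Among these 677 genes, those with the most reads were the paternally expressed zinc finger genes Peg3 (518 ± 30.2 CPM) and Plagl1 (412 ± 11.1 CPM). Xbp1, the transcription factor of the unfolded protein response, held 328 ± 11.9 CPM and Creb3, a factor of the secretory pathway, 219 ± 7.47 CPM. Stat3, which acts below the leptin receptor, read 211, 205, 214, 209 and 229 CPM, and Foxo1, which insulin signalling removes from the nucleus, 92.9, 95.9, 101, 92.7 and 82.9 CPM. Nr3c1, the glucocorticoid receptor, held 179 ± 6.42 CPM. The sex steroid receptors Pgr and Esr1 held 14.02 ± 0.567 and 4.97 ± 1.27 CPM. The clock repressors Nr1d2 and Nr1d1 held 75.7 ± 2.91 and 48.7 ± 2.05 CPM.

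Factors that mark the arcuate lineage were present at moderate levels. Isl1, needed for arcuate peptide neurons, had the most reads of the homeobox genes at 150 ± 7.71 CPM. Per length, Isl1 (104 ± 5.26 TPM) was followed among the named arcuate factors by Six6 (32.6 ± 1.99 TPM), Tbx3 and Otp (19.2 ± 2.14 and 18.9 ± 1.47 TPM, within each other's spread) and Bsx (9.42 ± 1.16 TPM). Bsx is known to drive transcription of Npy and Agrp, and it read 8.58, 10.2, 12.03, 10.1 and 9.65 CPM. Of the homeobox list, 47 of 110 genes were undetected (42.7%, against 25.3% of all names). Only 33 of the 110 were expressed, against 51.7% of all names. Undetected factors, of this and other lists, included Nkx2-2, Lhx9, Sim1, known from the paraventricular nucleus, and Nr5a1 and Fezf1, known from the ventromedial nucleus.

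All 21 genes of a list of Phf6 and other chromatin regulators were expressed, against 51.7% of all names. Phf6, the chromatin protein removed in the other genotype of the study, read 301, 288, 305, 317 and 301 CPM in these intact neurons (120 ± 4.63 TPM). Rbbp7 (608 ± 10.0 TPM) and Hdac2 (167 ± 8.49 TPM), which belong to the NuRD complex, lay above it per length. Paf1, of the PAF1 elongation complex, held 126 ± 3.03 TPM. Of 30 immediate early and dissociation-linked genes, 17 were expressed (56.7%), near the 51.7% of all names and 56.0% of protein-coding genes. In that list 8 averaged at least 10 CPM, led in reads by Jund and Gadd45g. Fos averaged 3.18 ± 0.778 CPM, and Egr1, Arc and Npas4 averaged 0.876, 0.883 and 0.211 CPM. Jund stood at 207 ± 1.71 CPM, Gadd45g at 104 ± 7.76 CPM and Jun at 53.3 ± 2.82 CPM.

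Housekeeping groups held between 0.787% and 2.91% of counts each. The 79 cytosolic ribosomal protein genes held 2.39% ± 0.0829 of counts (SD, n = 5) and the 75 nuclear subunits of oxidative phosphorylation 2.91% ± 0.0433. The 22 chaperones of the list held 2.42% ± 0.05003, and the 38 neuronal long noncoding and imprinted genes 2.51% ± 0.0288. Glycolytic genes held 0.787% ± 0.0151. Gapdh, which has many near-identical pseudogene copies that could share its reads, had 157 ± 5.10 CPM, and Aldoa had 1985 ± 43.9 CPM. Ndufs5, a complex I subunit, was undetected although 74 of the 75 genes of its list were expressed (98.7%, against 51.7% of all names).

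Several imprinted and X-linked genes had many reads. Of the 38 neuronal long noncoding and imprinted genes, 28 were expressed (73.7%, against 51.7% of all names). Apart from Ndn, Nap1l5, Peg3 and Plagl1, Gnas held 2566 ± 31.3 CPM, Dlk1 607 ± 25.5 CPM, Asb4 447 ± 7.39 CPM and the maternally expressed Meg3 394 ± 34.5 CPM. Of the 99 genes of at least 1000 CPM, 15 lay on the X chromosome, which carries 956 of the table's mapped genes and took 6.23% of counts. Cited1, an X-linked transcriptional coactivator, read 1311, 1302, 1308, 1325 and 1304 CPM. Serpina3n, a secreted protease inhibitor used as an AgRP neuron marker, read 1471, 1403, 1426, 1435 and 1482 CPM.

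Undetected genes included most members of families known from other organs and senses. No count was found for 1056 of 1125 olfactory receptor genes (93.9%), 302 of 331 vomeronasal receptor genes (91.2%), 32 of 35 bitter taste receptor genes and all 20 major urinary protein genes, against 25.3% of all names. Keratins and keratin-associated proteins lacked counts in 81 of 105 cases, and 9 were expressed (8.57%, against 51.7% of all names). Of the olfactory and of the vomeronasal receptor genes, 1 each was expressed. At the other end, 77 of 77 mitochondrial ribosomal protein genes and 323 of 368 genes named Zfp (zinc finger proteins) were expressed. By gene type, 23.1% of protein-coding genes and 53.3% of 932 lincRNA genes were undetected.

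Promoter composition differed between abundance classes. Of genes with no count, 7.78% had a CpG-rich window (observed-to-expected ratio above 0.6), against 28.3% at above 0 to 1 CPM, 64.4% at 1 to 10 CPM, 82.4% at 10 to 100 CPM and 84.6% at 100 to 1000 CPM. The placed TATAAA ran the other way, from 6.39% of genes with no count to 1.17% at 10 to 100 CPM. The class of at least 1000 CPM, with 76 promoters, stood at 81.6% and 2.63%. TGACGTCA was found in 0.820% of promoters of genes with no count and in 4.93% at 100 to 1000 CPM. Resp18, with its CpG ratio of 0.249, thus differed from most genes of its class, and Npy did not.

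Marker lists were read for the sorted cells and for other cells. All 16 AgRP neuron markers and all 11 pan-neuronal markers were expressed, against 51.7% of all names. The lists were chosen with earlier results known, and the cells were sorted by a reporter that depends on the Agrp locus. These counts therefore do not test the label. The AgRP neuron markers summed to 27412, 27025, 27554, 25232 and 27586 CPM in libraries 1 to 5, with library 4 the lowest. Npy and Agrp held 23205 of the mean sum of 26962 CPM, so it mostly repeats those 2 genes. For Pomc neurons 5 of 7 markers were expressed, summing to 426 to 540 CPM. For dopamine neurons it was 4 of 5 (51.4 to 71.2 CPM), and 3 of 6 for the Kiss1 and Tac2 (KNDy) neurons. Of 15 markers of other hypothalamic neurons 2 were expressed (329 to 550 CPM in sum). The Pomc list shares Cartpt, and the last list Sst, with the AgRP list. The part of such neurons was not tested. For other cells, the defining markers Cx3cr1, C1qa, Tmem119 and Trem2 (microglia), Olig2 (oligodendrocyte lineage), Kdr (endothelium) and Col1a1 (fibroblasts) were undetected, as were 4 haemoglobin genes. The 10 astrocyte markers summed to 12.2 to 20.04 CPM over the libraries. The 10 oligodendrocyte markers summed to 98.6 to 115 CPM, of which Mbp and Cnp made up most. The 11 tanycyte and ependymal markers, from cells that line the ventricle beside the arcuate nucleus, summed to 52.0 to 74.7 CPM, with Vim at 47.4 ± 5.65 CPM. Of the 10 endothelial markers, Bsg alone held 1624 ± 17.9 CPM, and it is also made by neurons.

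The libraries agreed closely, with exceptions that sat in single libraries. Over 8905 genes of at least 10 CPM, the median coefficient of variation (CV, the SD over the mean) was 6.92%, against 4.22% from counting error alone. At 100 CPM or more it was 3.91% against 2.06%. The biological coefficient of variation, estimated with edgeR over 12125 genes that passed its filter on low counts, was 0.0759. Only 199 genes reached a CV of 20%, and 3 reached 50%: Ttr, Apoe and Penk. Between pairs of libraries the chi-square per gene ran from 3.34 to 4.97, where counting error alone gives 1. No pair agreed within counting error, and each library was counted as 1 sample as labelled; amplified technical replicates could differ as much.

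In total 6 genes had at least 5 CPM and at least 5 times the next value in 1 library; this search was made after the values were seen. Library 4 was high for Penk, the enkephalin precursor (42.5 CPM, against 3.13 to 4.92 in the others), and for Tac1, the substance P precursor (38.3 against 0.391 to 1.04). It was also high for Hdc, the enzyme that makes histamine (10.9 against 0 to 0.348), and for Prph, the intermediate filament peripherin (8.71 against 0.522 to 1.48), and Crym (5.92 against 0 to 0.938). Library 5 was high for Ttr, the thyroid hormone carrier made by choroid plexus (46.6 against 1.88 to 2.14). Apoe, a lipid carrier of astrocytes and tanycytes, read 2.91, 13.1, 2.12, 55.6 and 2.70 CPM, and Gpr50, a tanycyte marker, 1.15, 3.28, 0.708, 10.3 and 0.435 CPM, both highest in library 4. In the same library the astrocyte sum was 20.04 CPM and the tanycyte sum 74.7 CPM, the top of their ranges, while Npy, Agrp, Sst and Lepr were at their lowest. Npy2r (481 CPM), Gad1 (426 CPM) and the sum of the pan-neuronal markers (4588 CPM) were at their highest there. The part of other cells in these values was not tested. Without library 4 Penk averaged 3.84 in place of 11.6 CPM, Tac1 0.688 in place of 8.21, Apoe 5.21 in place of 15.3 and Gpr50 1.39 in place of 3.18. Hdc averaged 0.203 in place of 2.34 CPM, Prph 0.968 in place of 2.52 and Crym 0.292 in place of 1.42. Without library 5, Ttr averaged 2.02 in place of 10.9 CPM.

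**Figure D5:**
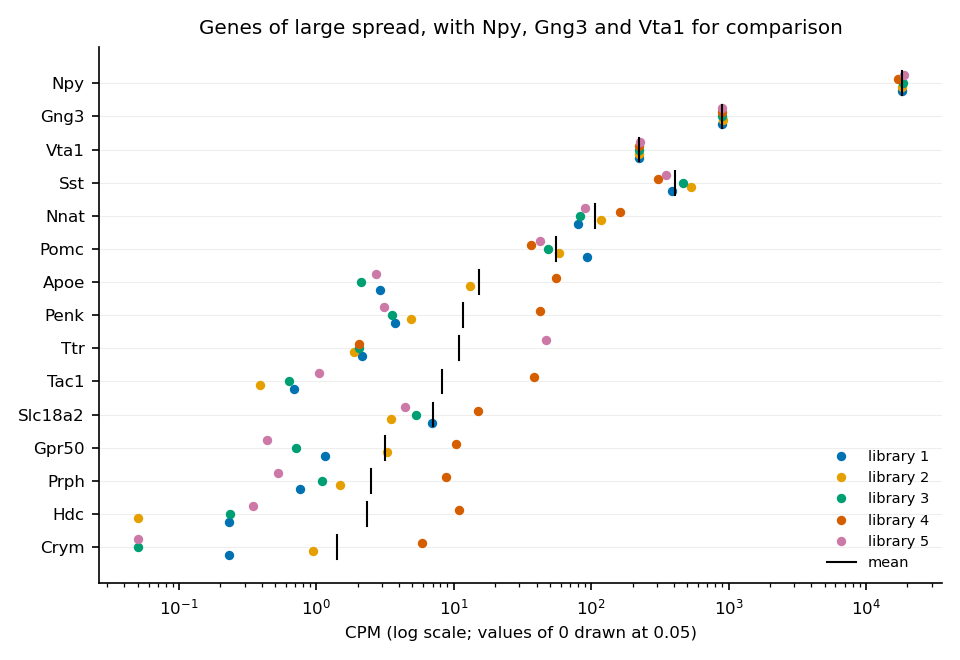
CPM (logarithmic axis) of genes with large spread between the 5 fed wild-type libraries, 1 point per library, with Npy, Gng3 and Vta1 for comparison; values of 0 are drawn at the left edge. Penk, Tac1, Hdc and Apoe are highest in library 4 and Ttr in library 5, at 46.6 CPM.

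At the other extreme, Vta1, a protein of endosomal sorting, read 223, 223, 224, 224 and 225 CPM, and Gng3, a neuronal G protein gamma subunit, 897, 906, 895, 901 and 897 CPM. These were picked as the smallest of 8905 CVs, so they mark the tight end of the range and no more. Rab3a, a vesicle GTPase (1192 ± 8.04 CPM), Cadps, a priming factor for dense-core granules (134 ± 0.904 CPM), and Ndn were also among the 20 genes of smallest CV.

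Some named genes overlap another annotated gene in more than 10% of their exon length, and neither library kit keeps the strand, so reads from the shared part cannot be told apart. The share was 11.1% to 24.9% for Agrp (Ctcf), Chrnb2 (Adar), Creb3 (Tln1), Gnas (Gm20721), Gng3 (Bscl2), Grin1 (Grin1os), Hcn3 (Pklr), Hrh3 (Gm17180), Kcnk2 (A430027H14Rik), Nmb (Sec11a), Nmbr (B230364G03Rik), Penk (A830012C17Rik), Slc32a1 (Gm14205) and Vta1 (Gm16234). It was 31.1% for Kcnj3 (Gm26794) and 52.6% for Jund (Gm11175), and all of Kiss1 lies within the annotated gene Gm28040.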

How the data were processed

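RNA from sorted AgRP neurons was measured as gene counts in 5 fed wild-type libraries. The deposited counts are the authors' raw whole-number reads per gene. The submitters' processing notes name Trimmomatic 0.36, HISAT2 2.1.0, Subread 1.6.2 with featureCounts, DESeq2 1.20.0 and the build GRCm38. For the annotation and the strand setting nothing is given in the sources used here. Normalized counts by the authors were not used.

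Counts were divided by each library's total (CPM) and by merged exon length (TPM; GENCODE M21, GRCm38), with mean and SD over 5 libraries and no test, since there is 1 group. Of 23129 names, 22063 matched by symbol, 648 by an older name and 418 did not. Among all names, 27 had been turned into dates and are not described. No column of per-sample values was left unmapped. Python 3.11.15, pandas 2.3.3, R 4.3.3, edgeR 4.0.16 and DESeq2 1.42.0 were used. The estimate of spread was tested on simulated data.

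The members and lists were chosen with earlier results of these data known. Genes could be named if they were among the 60 of highest CPM or TPM, the 12 highest of a list, listed as scarce or undetected, markers, members of a subunit family, or of extreme CV. Bsx, Fos, Igf1r and Prph fall outside that rule and were chosen after their values were seen. Alternatives were other scalings (TMM, DESeq2 size factors), filters, lengths, and leaving out each library. Results for some genes of the lists are not reported here.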

Additional observations from a re-analysis of the deposited data

Results flagged for a closer look

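Over 220 values tested (levels of named genes, marker sums and shares of counts), 23 had 1 library that stood apart from the other 4 by Dixon's criterion at the 95% level. Chance flags about 1 in 20 values, but some of these genes were named for their large spread, so the count cannot be set against that rate. Of the 23, 11 stood apart in library 4, 5 in library 5, 3 each in libraries 1 and 2, and 1 in library 3.

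Library 4 was the high one for Penk (42.5 CPM), Tac1 (38.3 CPM), Apoe (55.6 CPM), Hdc (10.9 CPM), Gpr50 (10.3 CPM), Prph (8.71 CPM) and Crym (5.92 CPM). It was also the high one for Zwint (6104 CPM) and Ache (289 CPM). It was the low one for the ribosomal protein share (2.24% of counts) and for the sum of the AgRP neuron markers (25232 CPM). Most of that sum is Npy and Agrp.

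Library 5 was the high one for Ttr (46.6 CPM) and for Nmbr (10.7 CPM). The marker sum of cells outside the brain, which contains Ttr, was 48.8 CPM there, and the sum for oligodendrocyte precursors was 2.17 CPM. It was the low one for Tox2 (93.7 CPM). Library 1 was the high one for Scn9a (311 CPM) and Grin2a (7.50 CPM) and the low one for Cbln4 (50.1 CPM). Library 2 was the low one for Scn8a (17.4 CPM) and Grik1 (20.2 CPM) and the high one for Nos1 (11.95 CPM), and library 3 the high one for Six6 (52.6 CPM).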

How the results depend on the processing

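No paired analysis was possible because 1 group is described and no groups are compared. Shares of counts depend on length: as shares of TPM, the 50 genes of highest TPM held 24.7%, ribosomal proteins 4.02%, oxidative phosphorylation subunits 5.14%, tubulins, actins and neurofilaments 1.53%, synaptic vesicle genes 0.501%, long noncoding and imprinted genes 1.43%, glycolysis 0.700%, chaperones 1.82% and immediate early genes 0.0801%. The Npy to Agrp ratio was 4.75 with the longest transcripts. The biological coefficient of variation was 0.0659 over genes of at least 10 CPM, 0.0803 over all genes with a count, and 0.0730 to 0.0784 when each library was left out in turn. With classes set by TPM, 32.2% of promoters above 0 to 1 and 69.7% at 1 to 10 were CpG-rich. The other 183 alternatives for these summary values stayed within a limit set by the kind of value. It was 1 SD between libraries for shares and the ratio, and 1.5 times for counts of genes. Leaving out a single library cannot move a mean of 5 libraries by 1 SD. For shares and the ratio, those alternatives therefore could not fail and show nothing. For promoter percentages it was the binomial confidence interval, and for the biological coefficient of variation 1 SD of the leave-one-out values. Rank by TPM differed from rank by CPM by over 50% for 57 of 216 named genes, while their mean CPM under other scalings stayed within 1 SD. The mean CPM of Mc4r, Oxt, Kiss1, Ghrh, Gfral, Gipr, Drd2, Npy6r and Chat rests on few counts and moves by over 1.5 times when single libraries are left out: without library 4 Mc4r averaged 0.0191 CPM, and without library 1 Chat averaged 0.148 CPM. Differences between genes near the level of 3 counts could not be resolved at this depth.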

Other observations

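Gene groups outside the feeding circuit were also measurable. Of 35 synaptic vesicle and release genes, 33 were expressed (94.3%, against 51.7% of all names) and none was undetected. Rab3a stood at 1476 ± 7.65 TPM, Snap25, a core fusion protein, at 421 ± 21.8 TPM, Vamp2 at 368 ± 7.74 TPM and Syt4, a synaptotagmin of dense-core granules, at 341 ± 15.0 TPM (SD, n = 5). Of 9 kainate and delta receptor genes, 8 were expressed (88.9%, against 51.7% of all names). The auxiliary subunit Neto2 stood at 35.1 ± 1.69 TPM and the kainate subunits Grik5 and Grik1 at 12.4 ± 0.882 and 10.8 ± 1.43 TPM. Gucy1b3, the beta subunit of the nitric oxide receptor, held 81.3 ± 5.17 TPM and its partner Gucy1a3 9.44 ± 1.07 TPM. Nos1, the neuronal nitric oxide synthase, held 1.77 ± 0.673 TPM.

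Of 42 orphan receptors 24 were expressed (57.1%, against 51.7% of all names). Gpr19 stood at 39.2 ± 1.71 TPM and Gpr75 at 27.9 ± 2.69 TPM. Of 22 receptors for lipids and prostanoids 3 were expressed (13.6%, against 51.7%). The prostaglandin receptor Ptger2 had the most reads of them, at 8.39 ± 1.28 CPM. The acid-sensing channel gene Asic2 held 24.6 ± 0.700 TPM. Among transcription factors, Hif1a, the hypoxia-inducible factor, held 134 ± 4.802 CPM, Tox2, an HMG-box factor, 107 ± 7.59 CPM and Klf6 72.1 ± 3.33 CPM. Of 23 POU and Pax factors 3 were expressed and 11 were undetected. Of 8 pituitary markers 7 were undetected (87.5%, against 25.3% of all names). The nuclear long noncoding RNA Xist, which is expressed from the inactive X chromosome of females, had 1 count over all 5 libraries, and the Y-linked genes Ddx3y and Eif2s3y held 245 ± 9.01 and 123 ± 6.53 CPM. Syt4 and Xist share 14.5% and 12.6% of their exon bases with Gm26658 and Tsix. Xist, Ddx3y and Eif2s3y were picked after the values were seen.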
